A study of Rattus norvegicus with 2 samples.

Results

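The microRNA (miRNA) miR-31 was followed in squamous cell carcinoma (SCC) and normal tissue of the rat tongue. It is 1 of the 350 rat miRNAs on the array, taken by its name, rno-miR-31, in the array's gene column among spots that are not controls. Per the labels, the animals were male Sprague-Dawley rats, 6 to 7 weeks old at the start, of which 20 took in 4NQO, a carcinogen, at 0.02 g/l and 20 had distilled water. Tissue was taken after 36 weeks, SCC tumours from the first arm and normal tongue from the second, and 7 samples of each kind gave total RNA. The data are 2 one-colour Agilent arrays, 1 labelled tumour and 1 labelled normal, on 1 slide read in 1 scan. Pooling of animals and the share of muscle, epithelium or stroma in each tissue are not given in the sources used here. A single array stands for each group, so the differences have no replicate check, no test was made, and errors are those of spots on one array.

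A miRNA is a short RNA that guides Argonaute proteins to messenger RNAs, mostly by pairing of its bases 2 to 8, the seed, and lowers the stability or translation of those messengers. miR-31 is known from squamous epithelium, where it is linked to keratinocyte growth and wound repair, and it is among the miRNAs most often found raised in human oral squamous cell carcinoma. One of its described targets in head and neck carcinoma is FIH, an inhibitor of the hypoxia factor HIF. Fibroblasts and some T cells are also known to express it.

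The probes of miR-31 are shown with the RNA they read, because they decide which part of the molecule the signal reports. Both probe sequences are the exact complement of 1 mature miRNA in RefSeq, rno-miR-31a-5p, which lies on the minus strand at chr5:108714906-108714927 in the rat assembly GRCr8. The array's own grid names the older build rn4, so these coordinates come from the match of sequences and not from the array. In the mature RNA the capitals mark the seed, and in the probes they mark the bases opposite the seed. All are written 5′ to 3′.
rno-miR-31a-5p: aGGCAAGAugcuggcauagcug
17-base probe: cagctatgccagcaTCT
16-base probe: cagctatgccagcaTC
The 17-base probe pairs with positions 6 to 22 of the mature RNA and the 16-base probe with positions 7 to 22, so they share 16 bases and cover 3 and 2 bases of the seed. The signal therefore reports the 3′ part of miR-31 and does not read its first bases.

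The hairpin from which miR-31 is cut is shown next, with both mature arms in capitals, to place the probed arm. It lies at chr5:108714849-108714954 on the minus strand in GRCr8.
Mir31 hairpin: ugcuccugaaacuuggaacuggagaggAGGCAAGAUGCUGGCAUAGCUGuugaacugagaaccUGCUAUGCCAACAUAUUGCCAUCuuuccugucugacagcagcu
The array's probes read the first arm. No spot of the array carries the name of the other arm, rno-miR-31a-3p, so the balance of the arms was not analysed here. In the RefSeq gene table the place of Mir31 is overlapped by the long non-coding RNA gene LOC130062807 and by Mir3554, and the nearest protein-coding gene on one side is Ifne, which encodes interferon epsilon. Mir3554 lies on the opposite strand and gives rno-miR-31b, which is the complement of positions 1 to 19 of rno-miR-31a-5p. In the line below the capitals again mark the seed.
rno-miR-31b: cUAUGCCAgcaucuugccu
That RNA has the strand of the probes themselves and not of their target. None of the other mature miRNAs in the RefSeq table, which holds 724, has the seed GGCAAGA of miR-31, so it had no seed family here to compare with.

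The 17-base probe gave a low signal on the tumour-labelled array. Over its 10 spots the processed signal, which is the intensity after the scanner software's background subtraction, had a lowest value of 39.7 intensity units, a median of 46.5 and a highest of 55.1. On the normal-labelled array its 10 spots had a lowest value of 333.0, a median of 365.7 and a highest of 393.2. The spots of the 2 arrays did not overlap, and the dimmest spot on the normal-labelled array was 6.05 times the brightest on the tumour-labelled array.

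The 16-base probe showed the same order at lower brightness. On the tumour-labelled array its 10 spots had a lowest signal of 16.2 intensity units, a median of 21.7 and a highest of 28.7. On the normal-labelled array the lowest was 160.6, the median 172.5 and the highest 183.5. Again the arrays did not overlap, by a factor of 5.59 between the nearest spots. Even across the probes, the dimmest of the 20 miR-31 spots on the normal-labelled array was 2.92 times the brightest of the 20 on the tumour-labelled array.

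The difference was present before any correction. The pixel mean of the 17-base spots, with no background taken off, lay between 88.6 and 107.9 intensity units on the tumour-labelled array and between 385.0 and 445.8 on the normal-labelled array. For the 16-base spots it lay between 66.6 and 80.1, against 216.0 to 236.8. The median of the local background around the same spots was alike, 23 to 27.5 intensity units on the tumour-labelled array and 20 to 27 on the normal-labelled array. No miR-31 spot was saturated on either array.

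**Figure D1:**
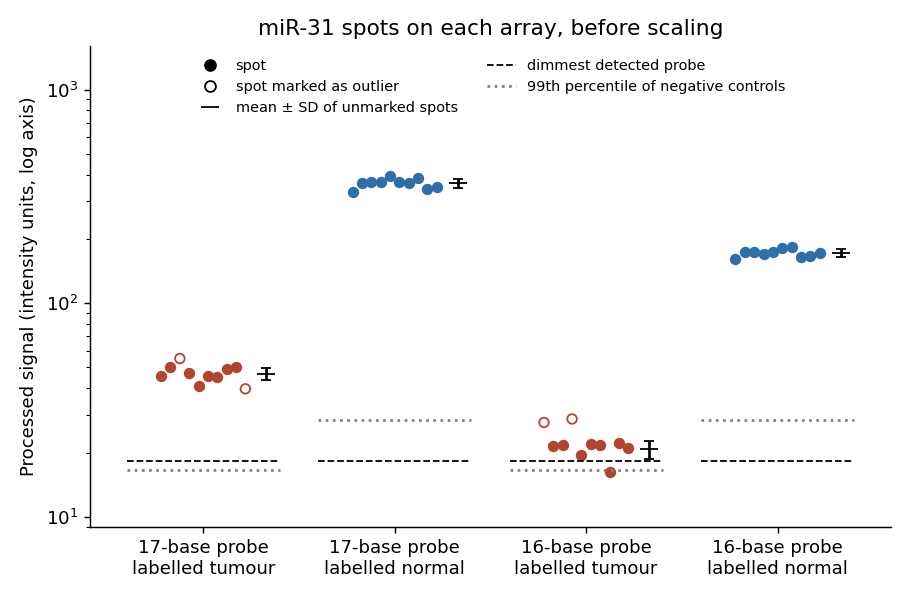
Processed signal of every miR-31 spot (intensity units, log axis) for the 17-base and 16-base probe on the tumour-labelled array (red) and the normal-labelled array (blue); open circles are spots the software marked as outliers, and the bars are the mean ± SD of the unmarked spots. The dashed line is the dimmest detected probe of that array and the dotted line the 99th percentile of its 672 negative control spots. Blue spots sit between 160.6 and 393.2 and red spots between 16.2 and 55.1, with the 16-base probe on the tumour-labelled array close to the dashed line at 18.3.

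The layout of the arrays is the same, so each miR-31 spot has a partner at the same place on the other array. At all 20 places the spot was lower on the tumour-labelled array. The ratio of normal to tumour before scaling was lowest at 5.81, had a median of 8.02 and was highest at 10.2. The spots ran from row 7 to row 184 of the array, and the SD of the log2 ratio over the 20 places was 0.20. The difference was therefore seen over the whole length of the array and not in 1 region of it.

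After averaging, the 17-base probe stood at 46.8 ± 3.11 intensity units (SD, n = 8 spots) on the tumour-labelled array and at 363.6 ± 18.5 (SD, n = 10 spots) on the normal-labelled array. The 16-base probe stood at 20.7 ± 2.0 (SD, n = 8 spots) and 171.7 ± 6.97 (SD, n = 10 spots). On the tumour-labelled array 4 of the 20 spots, 2 of each probe, were marked as outliers by the software and left out of these means. Those of the 16-base probe were its brightest, 27.7 and 28.7, so leaving them out lowers its mean. Those of the 17-base probe were its brightest and its dimmest, 55.1 and 39.7. On the normal-labelled array 0 of the 20 were marked.

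The ratio of miR-31 was computed with and without scaling, since the arrays differed in overall brightness. Without scaling miR-31 was 8.03-fold lower on the tumour-labelled array (log2 ratio -3.00, spot SE 0.03). The probes gave 7.76-fold (17 bases) and 8.30-fold (16 bases), a difference of 0.10 on the log2 scale with a spot SE of 0.07. The scanner software's own summary, its total gene signal, gave 44.8 with an error of 4.94 on the tumour-labelled array and 355.2 with an error of 26.9 on the normal-labelled array. The deposited value table holds the same 2 values, whose ratio is 7.93.

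Scaling divided each array by its own 75th percentile, taken over 140 probes that both arrays detected, where detected means that more than 50% of a probe's spots were well above background. Those percentiles were 525.6 and 277.5 intensity units, so scaling adds a factor of 1.89 to the fold. After scaling miR-31 was 15.2-fold lower on the tumour-labelled array (log2 ratio -3.93, spot SE 0.03), and the probes gave 14.7-fold and 15.7-fold. Its scaled level, in units of each array's 75th percentile, was 0.0592 against 0.900. Both versions have the same direction, and the true factor between the arrays cannot be told from 1 array per group. Scaling on the positive control features, which are spots the design adds apart from the rat miRNAs, gave 9.40-fold. With the marked outlier spots kept, the main scaling gave 14.5-fold.

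After scaling, 19 of the 85 miRNAs with a ratio were lower by 2-fold or more on the tumour-labelled array, which is 22.4%. Without scaling 5 were, or 5.88%, and miR-31 was among them in both cases. It had the lowest ratio of the 85. A common factor shifts all miRNAs alike, so this place and the distance to other miRNAs do not depend on a scaling of that kind. miR-31 lay 3.46 below the median miRNA on the log2 scale, or 11.0-fold. The distance does depend on the background correction: it was 2.13, or 4.36-fold, with no background subtraction and 2.01, or 4.04-fold, with normexp, which models the background and here adds an offset of 50.

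**Figure D2:**
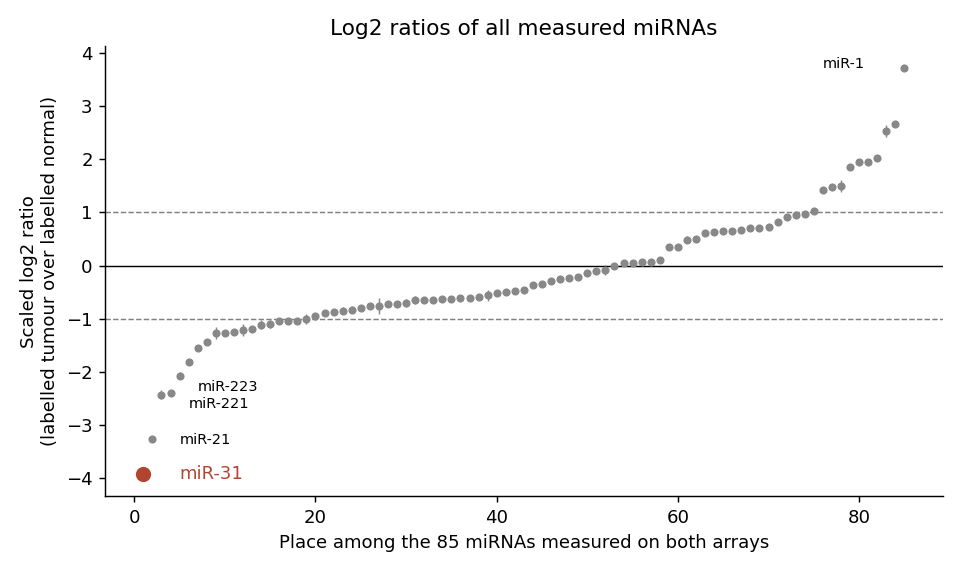
Scaled log2 ratio, labelled tumour over labelled normal, of the 85 miRNAs measured on both arrays, ordered from the lowest; bars are the spot SE and dashed lines mark 2-fold. miR-31 (red) is at -3.93, below miR-21 at -3.26, with miR-221 at -2.43 and miR-223 at -2.41 next and miR-1 at 3.72 at the other end.

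The place of miR-31 among the miRNAs of each array shows the same difference without any ratio between arrays. By total gene signal it ranked 77 of 350 on the tumour-labelled array and 21 of 350 on the normal-labelled array. Among detected miRNAs this was 77 of 104 and 21 of 88. The sum and the mean of its probes gave the same ranks, and its brightest probe gave 77 and 22. Its part of the summed total gene signal was 0.0967% on the tumour-labelled array and 1.41% on the normal-labelled array. Probes differ in how bright they are for a given amount of RNA, so a rank orders signals and not amounts.

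Its neighbours in brightness changed accordingly. On the tumour-labelled array miR-31 stood between miR-338 at 48.8 ± 4.99 intensity units (the software's error) and miR-93 at 39.3 ± 5.10, with miR-494 (53.6) and miR-96 (37.8) next on either side. The errors of miR-338, miR-31 and miR-93 overlap, so their order is not settled. On the normal-labelled array it stood between miR-29a at 370.7 ± 30.1 and let-7d at 314.2 ± 26.1, with miR-200c at 383.6 and miR-199a-3p at 310.3 next. Here too the error of miR-31 overlaps those of miR-29a and let-7d, so rank 21 is not settled. On that array miR-29a, let-7d, miR-200c and miR-199a-3p have scaled log2 ratios of 0.73, 0.35, -0.90 and -0.60. As miR-31 has the lowest ratio of all measured miRNAs in this setting, none of these neighbours could equal it.

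**Figure D3:**
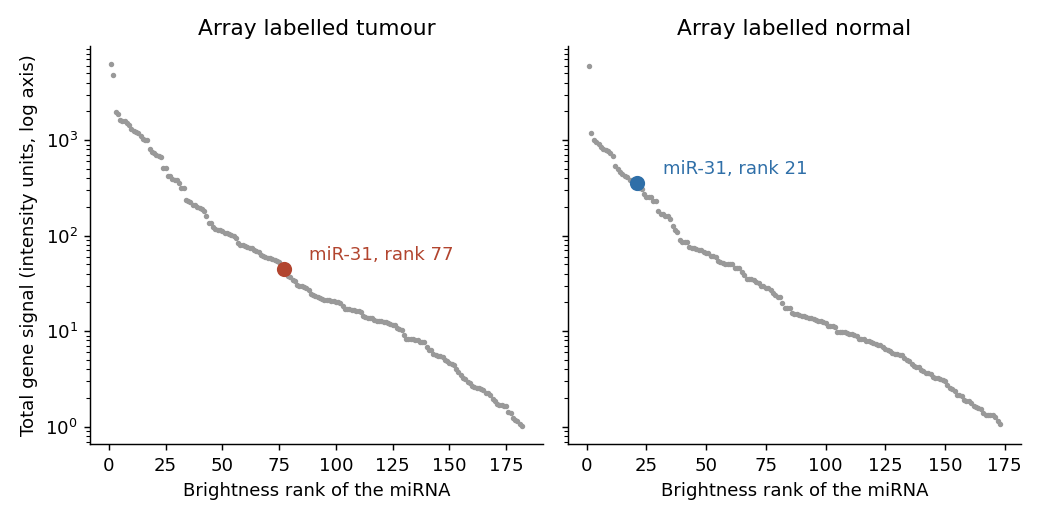
Total gene signal (intensity units, log axis) of each miRNA above 1 intensity unit against its brightness rank, for the tumour-labelled array (left) and the normal-labelled array (right). miR-31 (coloured) is at rank 77 with 44.8 and at rank 21 with 355.2.

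The signal on the tumour-labelled array was above the controls but not far above the limit of detection. The 672 negative control spots had a mean of 1.21 intensity units there and a 99th percentile of 16.5, though single spots reached 139.7, and 8 of the 672 were above the dimmest miR-31 spot. On the normal-labelled array 0 of the 672 were above it. All 10 spots of the 17-base probe were well above background on the tumour-labelled array, against 9 of 10 for the 16-base probe. The mean of the 17-base probe was 2.56 times the dimmest detected probe of that array, which stood at 18.3, and the mean of the 16-base probe was 1.13 times it. The largest fall that the 16-base probe could have shown after scaling was 17.8-fold, close to the 15.7-fold it gave, while the 17-base probe could have shown 37.7-fold.

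The same limit bears on the comparison with other miRNAs. A fall as large as that of miR-31 could be measured only for a miRNA at or above 146.6 intensity units on the normal-labelled array, in its brightest probe. Of the 88 miRNAs detected there, 36 were that bright and 52 were not. All 36 were also measured on the tumour-labelled array. Of them 6 were at least 2-fold lower after scaling, miR-31 included, beside 19 of all 85 measured miRNAs, or 22.4%. Without scaling the share of all was 5.88%, and the 36 were not counted in that way. For the 52 dimmer ones a fall of this size would have ended below detection, so the lowest place of miR-31 holds only among miRNAs bright enough to show it. The 3 miRNAs detected only on the normal-labelled array have no ratio and no place in the main setting.

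Similarity of probes was looked at because near-identical probes can share signal. Against the 936 probes of other miRNAs, the 17-base probe shared a run of at most 7 bases, and at most 11 of its 17 bases were identical in any ungapped alignment. miR-101b reached both of these limits, and miR-216a tied with it for the longest run. At 11 identical bases let-7d and miR-19b tied with miR-101b, but this list of ties was cut short and may not be complete. The total gene signal of miR-101b was 21.0 intensity units on the tumour-labelled array and 13.1 on the normal-labelled array, where it was not detected. That of let-7d was 757.2 and 314.2, and that of miR-19b was 75.4 and 61.6. Shared signal between these probes and those of miR-31 was not tested. The array also holds 2 control features named dmr_31a, for which no sequence is given. Their 20 spots averaged -3.52 intensity units on the tumour-labelled array and -1.34 on the normal-labelled array, and 0 of them were well above background on either array.

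The miRNAs with ratios nearest to that of miR-31 were found over the 2 arrays by the distance of their scaled log2 ratios. They were miR-21 at -3.26, miR-221 at -2.43, miR-223 at -2.41, miR-146b at -2.07 and miR-142-3p at -1.82. With 2 arrays this likeness is a single number per miRNA and says nothing of a shared pattern. Their mature RNAs are shown with the seed in capitals, so that their seeds can be set beside that of miR-31.
rno-miR-21-5p: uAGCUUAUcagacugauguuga
rno-miR-221-3p: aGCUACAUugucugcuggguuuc
rno-miR-223-3p: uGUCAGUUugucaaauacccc
rno-miR-146b-5p: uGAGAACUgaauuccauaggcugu
rno-miR-142-3p: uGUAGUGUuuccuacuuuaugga
None of the 5 shares its seed with miR-31 or with another of the 5. They come from RefSeq (GRCr8), matched through the probe sequences.

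miR-21, raised in many carcinomas, came nearest. Its brighter probe had spots from 6537 to 7552 intensity units on the normal-labelled array (median 7281) and from 1400 to 1587 on the tumour-labelled array (median 1501). The unmarked spots did not overlap between the arrays. miR-31 was a further 1.58-fold lower than miR-21, a gap of 0.66 on the log2 scale beside spot SEs of 0.03 and 0.02. The order of this pair turned with the background correction. With no background subtraction miR-21 was at -3.05 and miR-31 at -2.68, and with normexp they were at -3.02 and -2.55. Both corrections draw dim signals together, and miR-31 was the dimmer of the pair on both arrays. The part of this in the turned order was not tested.

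miR-221, which represses the cell cycle inhibitor p27, rests on 1 probe that was itself the dimmest detected on the tumour-labelled array. Its spots lay between 12.3 and 21.6 intensity units there and between 46.1 and 58.1 on the normal-labelled array. miR-31 was 2.82-fold further lower than miR-221. miR-223, a miRNA of myeloid cells, had spots from 69.6 to 82.4 on the tumour-labelled array and from 200.9 to 224.0 on the normal-labelled array in its brighter probe. miR-31 was 2.86-fold further lower than miR-223.

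miR-146b, from a family induced by NF-kB, lay at 20.1 to 27.5 intensity units on the tumour-labelled array and at 47.4 to 57.6 on the normal-labelled array. miR-142-3p, a miRNA of blood cells, lay at 31.1 to 47.4 and 71.4 to 82.0. In all 5 the unmarked spots of the 2 arrays did not overlap. The 5 were picked for their low ratios, and overlap was not counted over all measured miRNAs, so this does not set them apart. Without scaling miR-146b was 2.22-fold lower and miR-142-3p 1.87-fold lower, so miR-142-3p fell short of 2-fold.

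Among miRNAs often raised in oral carcinoma, miR-31 had the lowest ratio. The list holds 16 names, 15 of them on the array, of which 8 were measured on both arrays and 7 on neither. Of the 8, 7 were at least 2-fold lower on the tumour-labelled array, miR-31 included, beside 22.4% of all 85 measured miRNAs. The list's median log2 ratio was -2.24, and that of all 85 was -0.46. Without scaling 5 of the 8 kept a fall of 2-fold or more, beside 5.88% of all, and the medians were -1.32 and 0.46. The 7 members other than miR-31 had a scaled median of -2.07, and miR-31 lay 1.85 below it. The list rests on human tumours, and miR-31 and miR-21 lie opposite to its name on these arrays, so directions here rest on the 2 array labels being right.

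Keratinocyte and epithelial miRNAs lay below 0 after scaling, as miR-31 did, but by less. The median of all 85 measured miRNAs was also below 0, at -0.46, so this is not particular to the list. Of the 11 on the array 9 were measured on both arrays, 1 was detected only on the normal-labelled array and 1 on neither. The scaled log2 ratios of the 9 ran from -1.26 to -0.24, with 4 at least 2-fold lower, beside 22.4% of all measured miRNAs. These were miR-141 of the miR-200 family, which holds back ZEB factors (-1.26), miR-96 (-1.20), the squamous miRNA miR-205 (-1.04) and miR-183 (-1.01). The list's median of -0.90 became 0.02 without scaling, where that of all measured miRNAs was 0.46. There 0 of 9 were at least 2-fold lower, beside 5.88% of all. miR-31 lay 3.02 below the list's median, or 8.14-fold. The summed signal of the list before scaling was 2116 intensity units on the tumour-labelled array and 1914 on the normal-labelled array. Scaled, the sums were 4.03 and 6.90, so their order turned with the scaling. A larger or smaller share of epithelium and less miR-31 per cell cannot be told apart in RNA of whole tissue.

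Skeletal muscle miRNAs went the opposite way. Of 7 on the array, 5 were measured and 4 were at least 2-fold higher on the tumour-labelled array, which held for 12.9% of all measured miRNAs. These were miR-1 (log2 ratio 3.72), miR-133b (2.66), miR-133a (2.53) and miR-378 (1.85). Without scaling 5 of the 5 were at least 2-fold higher, beside 28 of all 85 measured miRNAs. The summed signal of the list was 10176 intensity units on the tumour-labelled array and 875.9 on the normal-labelled array before scaling, and 19.4 and 3.16 after it. The heart and slow-fibre members miR-208 and miR-499 were detected on neither array. Muscle signal thus moved against miR-31, and its part in the ratio of miR-31 was not tested. Leaving the muscle miRNAs out of the scaling percentile gave 12.2-fold for miR-31, between the scaled and unscaled values.

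Blood and stromal miRNAs were mixed. Of 4 measured leukocyte miRNAs 3 were at least 2-fold lower, miR-223 (-2.41), miR-142-3p (-1.82) and the NF-kB-linked miR-146a (-1.04), beside 22.4% of all measured miRNAs, while the lymphocyte miRNA miR-150 was at 1.43. Without scaling only miR-223 of these 3 stayed past 2-fold, with miR-142-3p at -0.90 and miR-146a at -0.12. Both miR-223 and miR-146a are also members of the oral carcinoma list, so the counts of these lists are not separate observations. The summed leukocyte signal was 246.2 on the tumour-labelled array and 321.9 on the normal-labelled array before scaling, and 0.468 and 1.16 after it. The red blood cell miRNA miR-451 was at 1.04. Of 4 stromal miRNAs, 2 were at least 2-fold lower, miR-199a-5p (-1.56) and miR-214 (-1.44), beside the same 22.4% of all measured miRNAs. The others were miR-199a-3p at -0.60 and miR-143, known from smooth muscle, at 0.82. Without scaling 0 of the 4 were at least 2-fold lower, with miR-199a-5p at -0.63, miR-214 at -0.52 and miR-143 at 1.74. The median of the stromal list was -1.02 (-0.10 without scaling), and that of the leukocyte list -1.43 (-0.51). miR-31 lay 2.90 below the stromal and 2.50 below the leukocyte median. The part of leukocytes and stroma in the ratio of miR-31 was not tested.

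**Figure D4:**
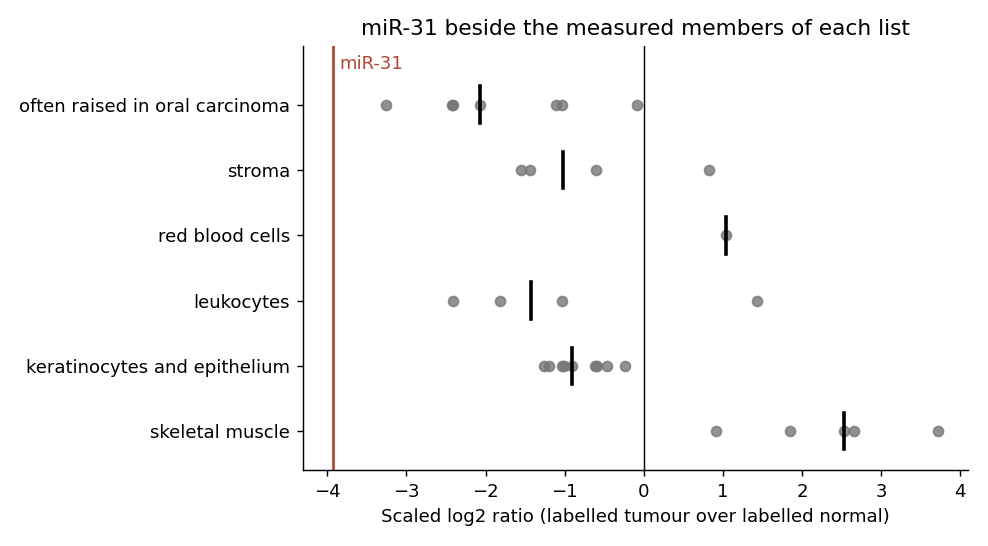
Scaled log2 ratio, labelled tumour over labelled normal, of the measured members of 6 lists of miRNAs (grey points) with each list's median over members other than miR-31 (black bar) and miR-31 as a red line at -3.93. The nearest members are miR-21 at -3.26 and miR-221 at -2.43 in the oral carcinoma list. Next is miR-223 at -2.41, a member of the oral carcinoma and the leukocyte list, while the epithelial members end at -1.26.

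Other ways of processing numbered 23, which gave 19 distinct values besides the main one, and miR-31 was at least 2-fold lower on the tumour-labelled array in all of them. The log2 ratio ran from -4.12 with the deposited value table after scaling to -2.55 with normexp, or from 17.3-fold to 5.87-fold lower. Without scaling the deposited values gave 7.93-fold. Both probes, the upper and the lower rows of the array, and odd and even spots each gave values between -3.97 and -3.88. Of the settings that give a place, 6 only apply a common factor and cannot move it. Among 12 others that are distinct, miR-31 had the lowest ratio in 10 and was second to miR-21 in 2, those with no background subtraction and with normexp.

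**Figure D5:**
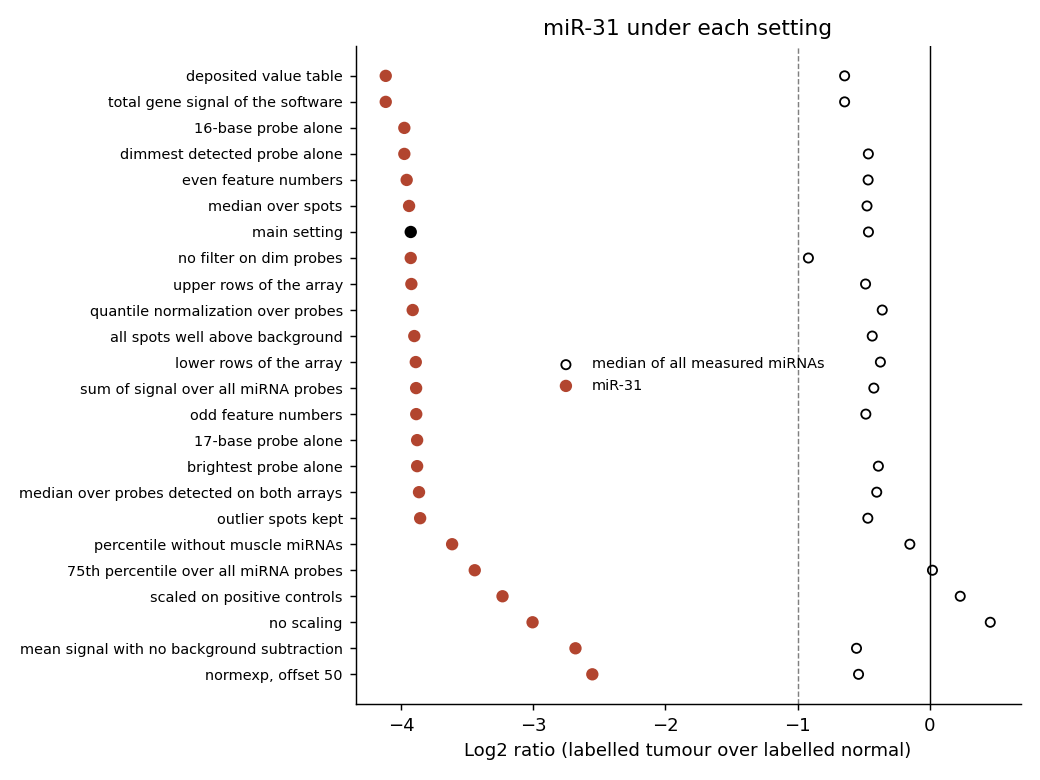
Log2 ratio of miR-31, labelled tumour over labelled normal, under each setting (filled points; black is the main setting at -3.93) and the median over all miRNAs measured in that setting (open points, where there is one); the dashed line marks 2-fold. The filled points run from -4.12 to -2.55, and the open points move with the scaling, from -0.46 in the main setting to 0.46 without scaling.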

How the data were processed

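RNA labelled with Cy3 was read on 2 Agilent miRNA arrays of 938 probes and 7000 miRNA spots. Per the file headers, the deposited intensity values came from version 10.5.1.1 of Agilent's Feature Extraction software, which subtracted background and a spatial trend on each array and did not normalize between arrays. The labels name a kit that amplifies messenger RNA, so the labelling of miRNA is unknown. Spots of a probe were averaged without marked ones (248 and 336 over all miRNA probes). Signals were scaled as the report says, raised to the dimmest detected probe where lower, and logged to base 2. Ratios were averaged over a miRNA's probes if both arrays detected them. A call is a size of 2-fold or more, with no test. Precision is limited by having 2 arrays. Named miRNAs are miR-31, its 2 neighbours in brightness on either side, the 5 nearest in ratio, the most similar probe, and in each list at most 4 measured members by size of ratio. Members and lists were chosen with earlier results of these data known. Averaging and unscaled ratios were tested on simulated data that had no outlier marks and smaller changes than that of miR-31. The choice of scaling and the background correction were not tested in this way. Tools were limma 3.58.1 (R 4.3.3), pandas 2.3.3 and numpy 2.4.6 (Python 3.11.15).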

Additional observations from a re-analysis of the deposited data

How the results depend on the processing

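The log2 ratio of miR-31 kept its direction and stayed past 2-fold in all 23 alternatives, of which 4 (each probe alone, and the upper and lower rows) were chosen after seeing the data. Some coincide, such as each probe alone with the brightest and the dimmest probe, or the deposited table with the total gene signal, which leaves 19 distinct values besides the main one. Of these 13 moved by less than 0.20, the SD over the 20 spot places. That is a wide measure, since the spot SE of the averaged ratio was 0.03. The value was -3.00 without scaling, -3.44 with the 75th percentile over all probes, -3.61 without the muscle miRNAs in the percentile, -3.23 on the positive control features, -2.68 with no background subtraction and -2.55 with normexp. The place of miR-31 was 2 with no background subtraction and 2 with normexp. The number of miRNAs at least 2-fold lower, 19 in the main setting, was 5 without scaling, 7 with the percentile over all probes, 8 without the muscle miRNAs, 6 on the control features, 9 with no background subtraction and 8 with normexp. Scaling by a common factor shifts every ratio alike, which accounts for the first 4 of these, and the cause of the other 2 was not tested. No replicate could be left out, and no paired analysis was possible because each group has 1 array. Signal over background limits the 16-base probe on the tumour-labelled array.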
